A study of Homo sapiens with 21 samples.

Results

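The mitochondrially encoded genes were described here across a coumarin dose series: the 37 rows of the deposited gene count table placed on chromosome MT, out of 58735 genes in the table. The selection used the chromosome alone and no measured value, although earlier results of these data were known when its members were chosen. It holds 13 protein-coding genes, 2 ribosomal RNA (rRNA) genes and 22 transfer RNA (tRNA) genes, and all 37 passed the filter on low counts among 16196 genes tested. The cells were labelled HepG2, an established human line from a liver tumour, and were kept in serum-free DMEM for 6 h with coumarin, a plant-derived aromatic lactone, dissolved in the same medium. The 7 groups received 0 (untreated control), 0.001, 0.01, 0.1, 1, 10 or 100 µM, and all 7 shared the change from serum-containing to serum-free medium. Each group held 3 libraries that the study calls biological replicates. The sources used here do not say that they came from separate cultures, so the p-values measure only the spread between these 21 libraries.

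Human mitochondrial DNA is a small circle transcribed from both strands into long precursors that carry many genes each. The tRNAs lie between most of the rRNA and mRNA sequences, and excision of the tRNAs at their ends releases the transcripts on either side. The mRNAs encode subunits of respiratory complexes I, III and IV and of the ATP synthase, and the rRNAs and tRNAs serve the mitochondrial ribosome that translates them. Most mitochondrial mRNAs carry poly(A) tails, whereas a mature tRNA ends in CCA and has none. The RNA was selected on poly(dT) beads, so a count on a tRNA gene may come from mature tRNA or from a longer transcript that still holds it, and the count table does not tell these apart.

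Library totals ranged from 27984517 to 43704155 counts. Of 15 hepatocyte marker genes, 5 had 0 counts in all 21 libraries, among them ALB (albumin), and none passed the low-count filter. The highest hepatocyte marker averaged 0.0281 CPM (counts per 1000000 counts of a library), and their sum was 0.0290 to 0.301 CPM per library, whereas the epithelial keratin KRT7 averaged 1212 and the fibrillar collagen COL3A1 936 CPM. Not all markers of other epithelial or mesenchymal cells were high: KRT19 and COL1A2 had 1 count each and EPCAM 0 over all 21 libraries. COL1A1 averaged 60.8, VIM 279 and COL5A1 351 CPM. The libraries are therefore called by their label only, since the liver markers were at or near 0. Of 10 other epithelial and mesenchymal markers 7 were tested; at 100 µM 0 were higher and 2 were lower, the growth factor receptor PDGFRB (log2 difference -0.27) and COL3A1 (-0.11). The part of cell identity in the results below was not tested.

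Across the 21 libraries the mitochondrial mRNAs and rRNAs were among the most abundant transcripts of these cells. On the per-length scale of the deposited FPKM (fragments per kilobase of gene, scaled by library size, averaged over 21 libraries), the subunits of complex IV led the table: MT-CO2 at 7766 ± 545 (SD), MT-CO3 at 7764 ± 475 and MT-CO1 at 7713 ± 427 held ranks 1 to 3 of all genes. These 3 levels lay well within each other's spread. MT-ATP6, a subunit of the ATP synthase, followed at 6882 ± 689 FPKM, the large rRNA MT-RNR2 at 6154 ± 283, and the complex I subunits MT-ND4L at 5385 ± 367, MT-ND4 at 4493 ± 341 and MT-ND3 at 3417 ± 325. The cytochrome b gene MT-CYB of complex III (2752 ± 193 FPKM) and the complex I genes MT-ND2 (2677 ± 223) and MT-ND1 (2615 ± 190.0) formed the next level. MT-ND6, a complex I subunit and the only protein-coding gene on the minus strand, stood at 2366 ± 264 FPKM, the small rRNA MT-RNR1 at 2020 ± 131 and MT-ND5 at 1806 ± 116. MT-ATP8 had the lowest value of the protein-coding genes, 222 ± 51.0 FPKM. It overlaps MT-ATP6 by 46 bases, and how reads there were assigned is not given. Its value is therefore a level of counts on that gene and not the level of a separate transcript. Altogether 16 of the 37 genes were among the 20 highest levels in the table.

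**Figure D1:**
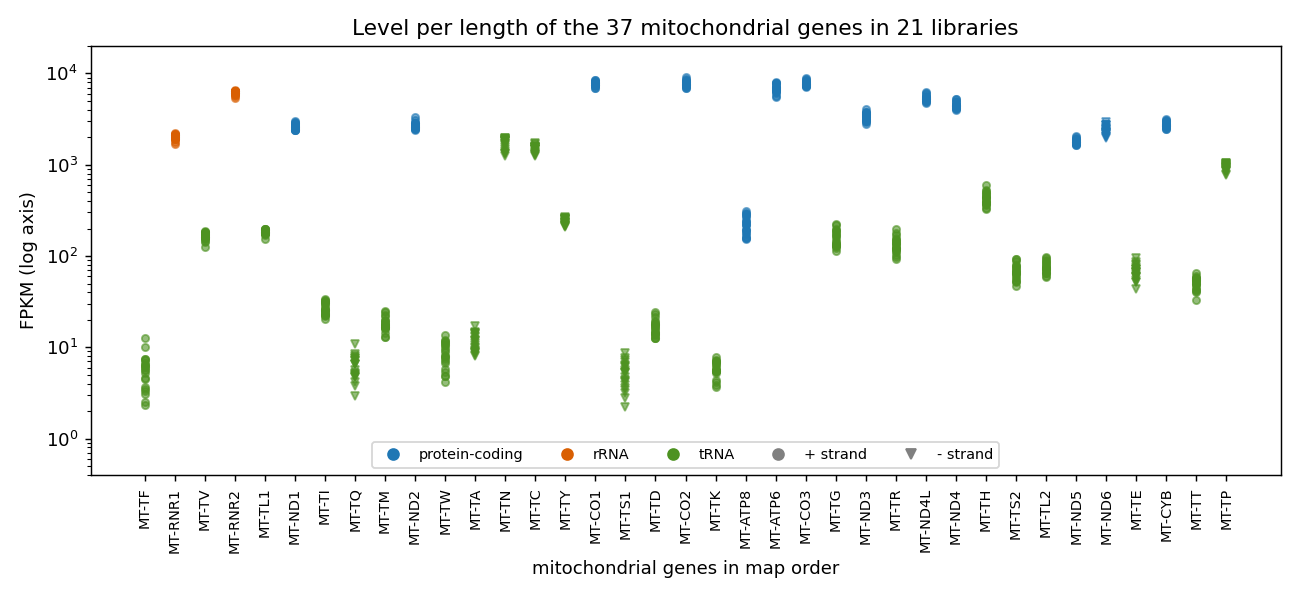
Level of each of the 37 mitochondrially encoded genes in all 21 libraries, as deposited FPKM on a log axis, in map order and coloured by class, with circles for the plus and triangles for the minus strand. The 2 rRNAs and 12 of 13 protein-coding genes average above 1000 FPKM, and MT-ATP8 averages 222 FPKM. The tRNA genes spread from 1679 FPKM for MT-TN down to 5.13 FPKM for MT-TS1.

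The tRNA genes differed far more among themselves. MT-TN, which encodes the tRNA for asparagine, averaged 1679 ± 235 FPKM and MT-TC, for cysteine, 1479 ± 133, the only tRNA genes above 1000. They were followed by MT-TP for proline at 929 ± 74.7 FPKM and MT-TH for histidine at 429 ± 68.4. MT-TN and MT-TC together held 55.4% of all counts on tRNA genes, and with MT-TP and MT-TH 78.7%. Between 100 and 300 FPKM came MT-TY (tyrosine, 236 ± 17.8), MT-TL1 (leucine, 185 ± 11.02), MT-TV (valine, 164 ± 15.3), MT-TG (glycine, 158 ± 32.2) and MT-TR (arginine, 134 ± 26.5). Lower still were MT-TL2 (the second leucine tRNA, 75.96 ± 11.01 FPKM), MT-TS2 (serine, 68.5 ± 13.2), MT-TE (glutamate, 66.99 ± 12.5), MT-TT (threonine, 51.1 ± 7.73), MT-TI (isoleucine, 26.9 ± 4.04), MT-TM (methionine, 18.1 ± 3.33) and MT-TD (aspartate, 16.7 ± 3.34). The lowest were MT-TA (alanine, 11.4 ± 2.57 FPKM), MT-TW (tryptophan, 8.54 ± 2.70), MT-TQ (glutamine, 6.20 ± 1.87), MT-TK (lysine, 5.84 ± 1.17), MT-TF (phenylalanine, 5.76 ± 2.48) and MT-TS1 (the other serine tRNA, 5.13 ± 1.70). These 6 averaged under 1 CPM, and a library held as few as 5 counts of one of them, so changes in them were measured with little depth.

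The tRNA genes that passed below in a comparison between doses or over the 7 groups are shown, each read 5′ to 3′ on its own strand. MT-TE, which passed only for its slope over dose, is not among them. The sequences are those of GENCODE release 29 on build GRCh38, in which all 37 genes had the same start, end and strand as in the deposited table. The capitals mark the anticodon, taken as the middle of a 7-base loop closed by a 5-position stem.
MT-TN (MT:5657-5729, minus strand): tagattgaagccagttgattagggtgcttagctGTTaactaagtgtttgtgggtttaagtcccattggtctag
MT-TC (MT:5761-5826, minus strand): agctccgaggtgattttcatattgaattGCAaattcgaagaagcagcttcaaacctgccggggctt
MT-TV (MT:1602-1670, plus strand): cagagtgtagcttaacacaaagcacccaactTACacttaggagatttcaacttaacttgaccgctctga
MT-TT (MT:15888-15953, plus strand): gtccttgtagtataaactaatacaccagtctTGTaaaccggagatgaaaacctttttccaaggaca
MT-TH (MT:12138-12206, plus strand): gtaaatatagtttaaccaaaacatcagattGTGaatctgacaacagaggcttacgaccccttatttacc
MT-TS2 (MT:12207-12265, plus strand): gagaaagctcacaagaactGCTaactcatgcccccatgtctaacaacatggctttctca
MT-TG (MT:9991-10058, plus strand): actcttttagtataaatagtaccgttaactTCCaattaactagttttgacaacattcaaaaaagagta
MT-TR (MT:10405-10469, plus strand): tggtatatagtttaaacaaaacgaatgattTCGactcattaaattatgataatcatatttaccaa

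MT-TS2 is the shortest of the 37 genes at 59 bases, and its tRNA lacks the D arm that other tRNAs have; 3 of its 5 anticodon stem positions pair. The longest tRNA gene has 75 bases. MT-TH abuts MT-TS2 and MT-TS2 abuts MT-TL2 with no base between them, whereas 31 bases separate MT-TN from MT-TC. Over the whole chromosome 20 of 36 neighbouring pairs abut, 5 overlap, 8 are 1 to 10 bases apart and 3 are further apart. Reads that span such a border belong to both genes, and no source used here says how they were assigned.

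The share of all counts that fell on the 37 genes stayed between 5.61% and 6.63%. It averaged 5.93% ± 0.225 (SD, n = 3) in the control and 6.04% over the 18 treated libraries, a difference of 0.108 percentage points against a spread of 0.298 (SD) within groups. Protein-coding genes took 4.39% to 5.43% of a library's counts, or 78.2% to 82.2% of its mitochondrial counts. rRNA took 0.999% to 1.19%, and tRNA genes 0.0334% to 0.0430%.

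**Figure D2:**
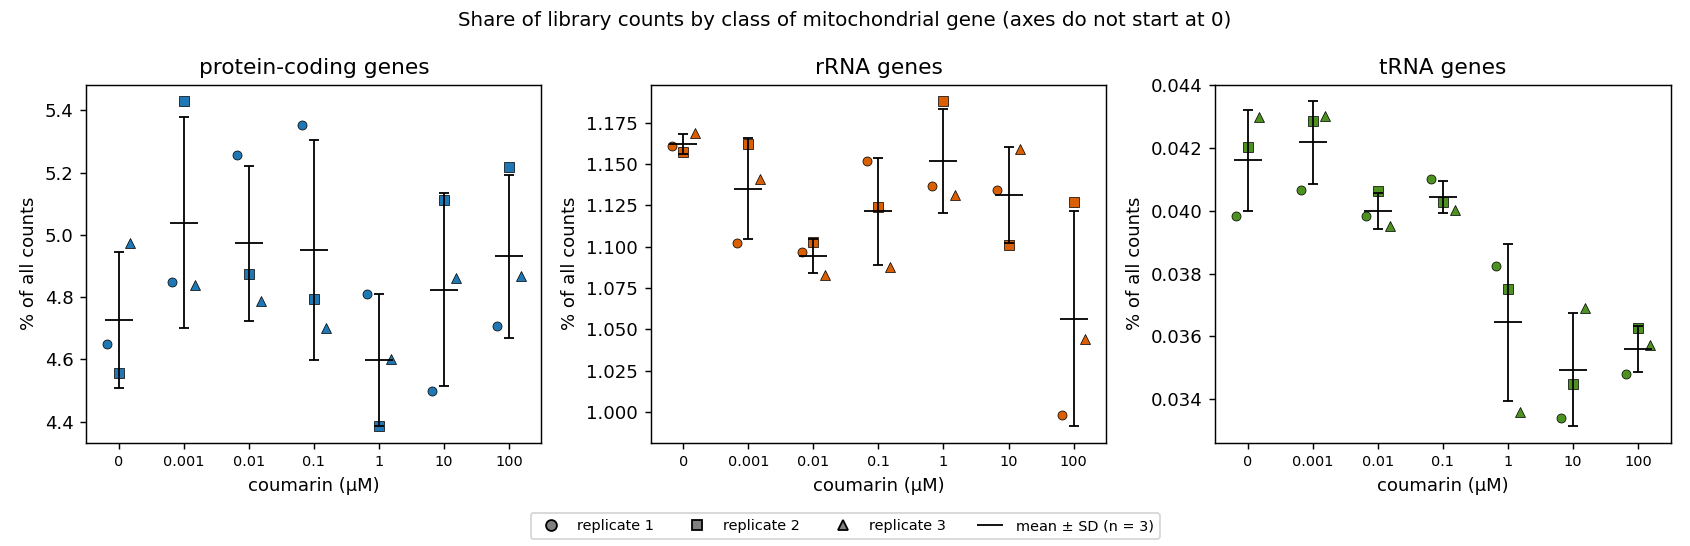
Share of each library's total counts on mitochondrial protein-coding, rRNA and tRNA genes, in percent, against coumarin dose, with 1 point per library and the group mean ± SD (n = 3) as a line with bars; the axes do not start at 0. The protein-coding shares overlap the controls at every dose, and the tRNA shares at 1, 10 and 100 µM (0.0334% to 0.0382%) lie below the 3 controls (0.0398% to 0.0430%).

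The tRNA share lay below the control at the 3 highest doses. It was 0.0416% ± 0.00161 (SD, n = 3) without coumarin, 0.0365% ± 0.00250 at 1 µM, 0.0349% ± 0.00180 at 10 µM and 0.0356% ± 0.000728 at 100 µM. All 9 libraries of these 3 doses lay below all 3 controls. Without MT-TN and MT-TC the share of the remaining 20 tRNA genes was 0.0183% ± 0.00160 in the control, 0.0159% ± 0.000706 at 10 µM and 0.0174% ± 0.000797 at 100 µM, and its 100 µM libraries (0.0167% to 0.0183%) overlapped the controls (0.0170% to 0.0201%). The rRNA share was 1.163% ± 0.00589 in the control and 1.057% ± 0.0651 at 100 µM, and its 100 µM libraries (0.999% to 1.127%) as well as those at 0.01 µM (1.083% to 1.103%) and 0.1 µM (1.088% to 1.152%) lay below the controls (1.157% to 1.169%). Protein-coding genes took 4.73% ± 0.218 in the control and 4.93% ± 0.261 at 100 µM. No p is given for these class totals, because they sum over genes that were chosen together.

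At 100 µM, 4 tRNA genes and the small rRNA fell and no mitochondrial gene rose. MT-TN, MT-TV, MT-TT and MT-TC among the 22 tRNA genes and MT-RNR1 of the 2 rRNAs passed the threshold of an adjusted p of 0.05 (edgeR quasi-likelihood test, Benjamini-Hochberg over 16196 genes). Over all genes tested 8.47% passed at this dose, 3.66% higher and 4.80% lower. In either direction 5 of 37 is not far from the background of 8.47%. All 5 were lower, for which the share of all genes was 4.80%, and the difference from that share was not tested. The median log2 difference from control was -0.22 for tRNA genes and -0.19 for the rRNAs, 0.03 for the protein-coding genes and 0.00 for all genes tested. Of the 37 genes 8 had all 3 libraries below all 3 controls, 7 of them tRNA genes, against 13.9% of all genes. At an unadjusted p under 0.05 there were 10 of 37, beside 23.2% of all genes.

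MT-TN was the tRNA gene with the smallest p at this dose. The control libraries held 134, 135 and 129 CPM of MT-TN, followed by 131, 140.1 and 131 at 0.001 µM, 119, 122 and 123 at 0.01 µM and 138, 135 and 133 at 0.1 µM. At 1 µM MT-TN stood at 119.5, 129 and 94.99 CPM, at 10 µM at 104, 96.6 and 110.3 and at 100 µM at 88.5, 94.9 and 101. The mean was lowest at 100 µM, where all 3 libraries lay below every control. The log2 difference was -0.48 (SE 0.07, adjusted p = 1.82e-05), and the call held under every alternative tried and without any single library. MT-TC, its neighbour on the same strand, fell less. Without coumarin the level was 95.7, 102 and 99.8 CPM, against 96.8, 103 and 109.7 at 0.001 µM, 102, 96.6 and 102 at 0.01 µM and 106, 98.7 and 99.7 at 0.1 µM. For 1 µM it was 96.5, 89.9 and 80.3 CPM, for 10 µM 80.8, 88.6 and 95.9 and for 100 µM 83.5, 83.9 and 87.2. Its 100 µM libraries also lay below every control, with a log2 difference of -0.22 (SE 0.06, adjusted p = 0.0149). That call was lost with limma on the FPKM, with scaling within the mitochondrial counts, and without control replicate 2 or 100 µM replicate 1.

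MT-TV lies between the rRNA genes and abuts both. It measured 12.2, 11.5 and 12.04 CPM in the 3 control libraries, 10.9, 12.2 and 12.5 at 0.001 µM, 11.7, 10.6 and 10.7 at 0.01 µM and 12.01, 10.8 and 10.8 at 0.1 µM. The higher doses gave 12.02, 11.02 and 11.3 CPM at 1 µM, 10.8, 10.2 and 10.9 at 10 µM and 9.56, 8.47 and 9.83 at 100 µM. The 3 libraries at 100 µM were the lowest of all 21. The log2 difference was -0.36 (SE 0.08, adjusted p = 0.00267) and held under every alternative and without any single library. MT-TT lies between MT-CYB and MT-TP. The control libraries held 3.69, 3.61 and 3.62 CPM of MT-TT, followed by 3.19, 4.17 and 3.44 at 0.001 µM, 3.54, 2.77 and 3.56 at 0.01 µM and 3.40, 3.71 and 3.89 at 0.1 µM. At 1 µM MT-TT stood at 3.23, 3.14 and 3.28 CPM, at 10 µM at 2.73, 3.71 and 2.94 and at 100 µM at 2.61, 2.16 and 2.65. Its 100 µM libraries were likewise the lowest of the 21, with a log2 difference of -0.56 (SE 0.14, adjusted p = 0.0109) that was lost without 100 µM replicate 2.

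The rRNA genes flank MT-TV on both sides. MT-RNR1 (MT:648-1601) encodes the 12S rRNA of the small ribosomal subunit. Without coumarin the level was 2009, 2002 and 2000 CPM, against 1825, 1983 and 1946 at 0.001 µM, 1788, 1835 and 1803 at 0.01 µM and 1907, 1849 and 1874 at 0.1 µM. For 1 µM it was 1971, 2048 and 1945 CPM, for 10 µM 1853, 1854 and 1940 and for 100 µM 1564, 1770 and 1668. All 3 libraries at 100 µM were below the other 18. The log2 difference from control was -0.27 (SE 0.04, adjusted p = 3.09e-05), under every alternative and without any single library past the threshold. The controls spanned only 2000 to 2009 CPM, and the libraries at each of the lower doses except 1 µM also lay below all of them. At 0.01 µM the log2 difference was -0.15 (SE 0.04, adjusted p = 0.537), which did not pass. MT-RNR2 (MT:1671-3229) encodes the 16S rRNA of the large subunit and held 83.3% of the rRNA counts. It measured 9661, 9337 and 9681 CPM in the 3 control libraries, 9116, 9773 and 9647 at 0.001 µM, 9291, 9257 and 8968 at 0.01 µM and 9776, 9418 and 8957 at 0.1 µM. The higher doses gave 9293, 9783 and 9388 CPM at 1 µM, 9621, 9242 and 9794 at 10 µM and 8285, 9429 and 8625 at 100 µM. Its 100 µM libraries overlapped the controls, and the log2 difference of -0.12 (SE 0.04, adjusted p = 0.0659) did not pass; it passed with DESeq2, with no filter on low counts, with a gene length offset and without 100 µM replicate 2. At the ends of this stretch MT-TF had a log2 difference of -0.28 (SE 0.43), MT-TL1 of -0.12 (SE 0.07) and the mRNA MT-ND1 of -0.04 (SE 0.07), none of which passed.

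**Figure D3:**
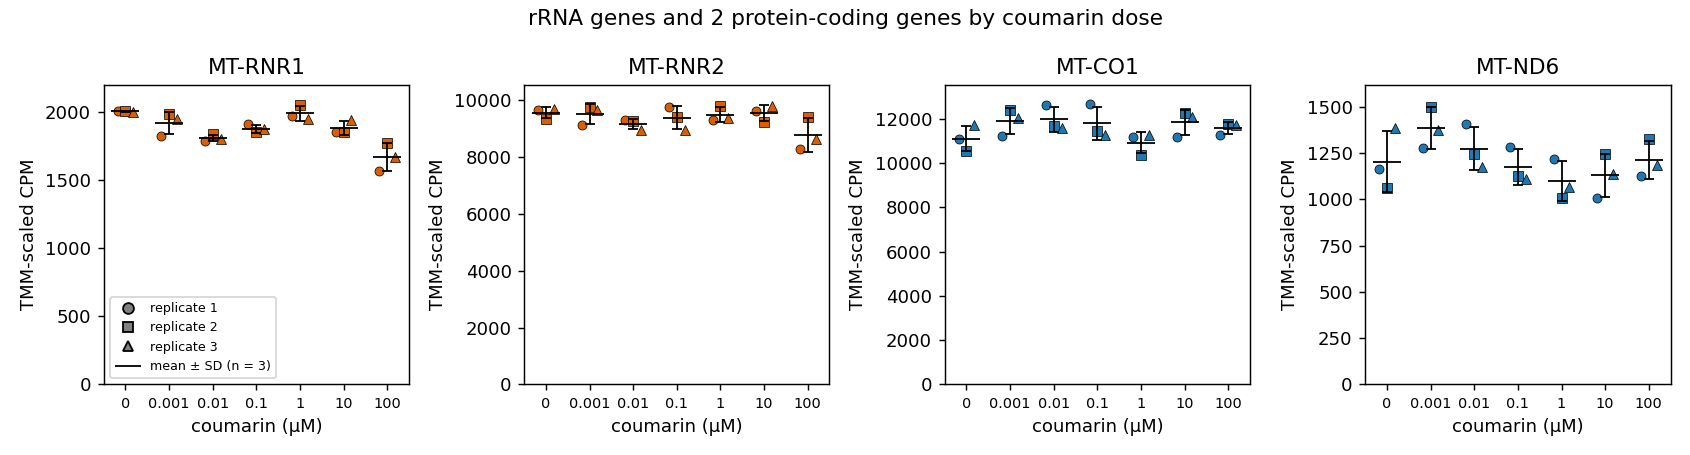
TMM-scaled CPM of the 2 rRNAs, MT-CO1 and MT-ND6 in each library against coumarin dose, with the group mean ± SD (n = 3). MT-RNR1 is lowest at 100 µM (1564 to 1770 CPM against 2000 to 2009 in the control), whereas the MT-CO1 and MT-ND6 libraries at 100 µM overlap the controls.

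At 10 µM, 3 tRNA genes fell and no mitochondrial gene rose: MT-TH, MT-TN and MT-TS2. Over all genes tested only 0.327% passed at this dose, and 0.0864% were lower. The median log2 difference was -0.17 for tRNA genes, -0.05 for the rRNAs, 0.06 for the protein-coding genes and 0.00 for all genes. Of the 22 tRNA genes 7 had all 3 libraries below the controls, and of the 37 genes 9, against 7.90% of all genes. At an unadjusted p under 0.05 there were 12 of 37, beside 12.2% of all genes. This comparison and that of 100 µM share the same 3 control libraries.

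MT-TH abuts MT-ND4 at its 5′ end. The control libraries held 29.7, 34.5 and 39.99 CPM of MT-TH, followed by 29.4, 32.97 and 32.7 at 0.001 µM, 24.9, 35.2 and 25.9 at 0.01 µM and 25.7, 28.9 and 29.6 at 0.1 µM. At 1 µM MT-TH stood at 27.2, 26.1 and 24.6 CPM, at 10 µM at 21.7, 22.4 and 24.7 and at 100 µM at 30.9, 32.4 and 26.2. The 3 libraries at 10 µM were below every control, and those at 100 µM overlapped them. At 10 µM the log2 difference was -0.60 (SE 0.11, adjusted p = 0.00879), lost with limma on the FPKM (adjusted p = 0.0697). MT-TS2, which follows it, also had its lowest mean at 10 µM. Without coumarin the level was 4.10, 5.08 and 5.36 CPM, against 4.51, 4.29 and 5.28 at 0.001 µM, 3.39, 4.61 and 3.80 at 0.01 µM and 3.23, 3.73 and 4.45 at 0.1 µM. For 1 µM it was 3.03, 3.97 and 3.67 CPM, for 10 µM 2.64, 3.03 and 3.02 and for 100 µM 3.86, 3.98 and 3.64. Its 10 µM libraries were below all controls, with a log2 difference of -0.74 (SE 0.14, adjusted p = 0.0157). Leaving out control replicate 2 or 3, or 10 µM replicate 1 or 3, ended that call. For MT-TN the 10 µM difference was -0.35 (SE 0.07, adjusted p = 0.0130), lost with limma and without control replicate 1, control replicate 2 or 10 µM replicate 2.

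The tRNA genes between MT-CO3 and MT-ND4L lay in the same direction at 10 µM without passing. MT-TG is flanked by MT-CO3 and MT-ND3. It measured 8.40, 12.8 and 14.7 CPM in the 3 control libraries, 12.5, 11.03 and 14.3 at 0.001 µM, 10.4, 13.1 and 9.51 at 0.01 µM and 9.53, 8.92 and 8.79 at 0.1 µM. The higher doses gave 8.92, 8.45 and 8.88 CPM at 1 µM, 7.51, 8.69 and 8.18 at 10 µM and 11.3, 11.5 and 12.1 at 100 µM. At 10 µM 1 control library fell inside the treated range, and the log2 difference was -0.55 (SE 0.14, adjusted p = 0.0709). MT-TR is flanked by MT-ND3 and MT-ND4L. The control libraries held 7.71, 8.86 and 11.3 CPM of MT-TR, followed by 10.01, 9.54 and 12.3 at 0.001 µM, 9.41, 10.7 and 8.68 at 0.01 µM and 7.49, 7.05 and 7.75 at 0.1 µM. At 1 µM MT-TR stood at 7.26, 5.85 and 7.72 CPM, at 10 µM at 6.19, 7.53 and 6.46 and at 100 µM at 8.87, 8.41 and 9.37. The 10 µM libraries were below all controls, with a log2 difference of -0.47 (SE 0.12, adjusted p = 0.0855). MT-TR passed with DESeq2, and both passed with no filter on low counts and without control replicate 1. MT-TG also passed with scaling within the mitochondrial counts and without 0.1 µM replicate 1. MT-TL2, which abuts MT-TS2 on its other side, had a log2 difference of -0.43 (SE 0.14, adjusted p = 0.197).

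The mRNAs that border these tRNA genes did not pass at 10 µM. The log2 differences were 0.06 for MT-CO3, 0.02 for MT-ND3, -0.03 for MT-ND4L and 0.06 for MT-ND4, each with 10 µM libraries that overlapped the controls. MT-ND5, which follows MT-TL2, was at -0.16 (SE 0.05, adjusted p = 0.173) with all 3 libraries below the controls.

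**Figure D4:**
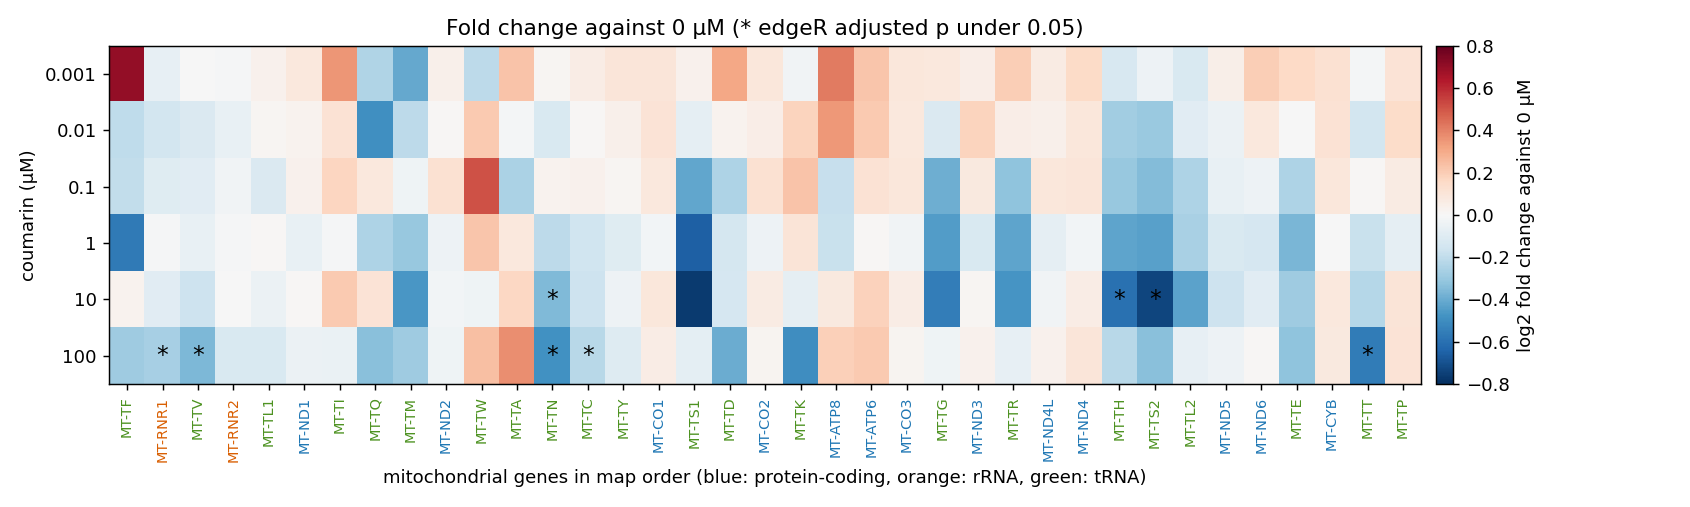
Log2 difference from the control as a colour (blue lower, red higher) for the 37 genes in map order along the x axis at the 6 coumarin doses, with a star for an adjusted p under 0.05. MT-TH, MT-TN and MT-TS2 are called at 10 µM, and MT-TN, MT-TV, MT-TT, MT-TC and MT-RNR1 at 100 µM, whereas the protein-coding genes, with no star, range from -0.16 to 0.21 at these doses.

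Set directly against 10 µM, a comparison added after the values were seen, MT-TG and MT-TH were higher at 100 µM and MT-RNR1 was lower. Over all genes 4.57% passed here, 2.07% higher and 2.49% lower, against 3 of 37. The log2 differences were 0.52 for MT-TG (SE 0.14, adjusted p = 0.0250), 0.38 for MT-TH (SE 0.11, adjusted p = 0.0366) and -0.18 for MT-RNR1 (SE 0.04, adjusted p = 0.00778). MT-TR (0.41, adjusted p = 0.0611), MT-TS2 (0.40, adjusted p = 0.122) and MT-TL2 (0.36, adjusted p = 0.144) did not pass. All 100 µM libraries of these genes and of MT-TG and MT-TH lay above all their 10 µM libraries. Of the 37 genes 6 were separated upwards in this way and 5 downwards, and of the 22 tRNA genes 5 and 4. The share of all genes so separated is not given here, so these counts are not read as particular to mitochondrial genes. The calls were few and easily lost: none remained with limma or without 100 µM replicate 1, and 1 was left without 10 µM replicate 1 or replicate 3.

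Gene length was examined beside these comparisons. Among nuclear genes, the tendency of longer genes to read higher was steepest in 10 µM replicate 1, at 0.0294 log2 units per doubling of length. It was 0.0158 in control replicate 1 and -0.0141 to 0.00960 in the other libraries. Replicates 2 and 3 at 10 µM were at -0.0048 and 0.0033, so the steep value came from 1 library of that dose. Among 148 nuclear genes of at most 150 bases the median log2 difference was -0.15 at 10 µM, beside -0.17 for the mitochondrial tRNA genes, with 0 of the 148 past the threshold. At 100 µM it was 0.02 beside -0.22, and for 100 against 10 µM it was 0.18 beside -0.05. An offset for gene length kept the 3 genes called at 10 µM and the 5 called at 100 µM, and it ended the calls of MT-TG (0.42) and MT-TH (0.28) between 100 and 10 µM. The part of gene length in the differences was not tested.

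**Figure D5:**
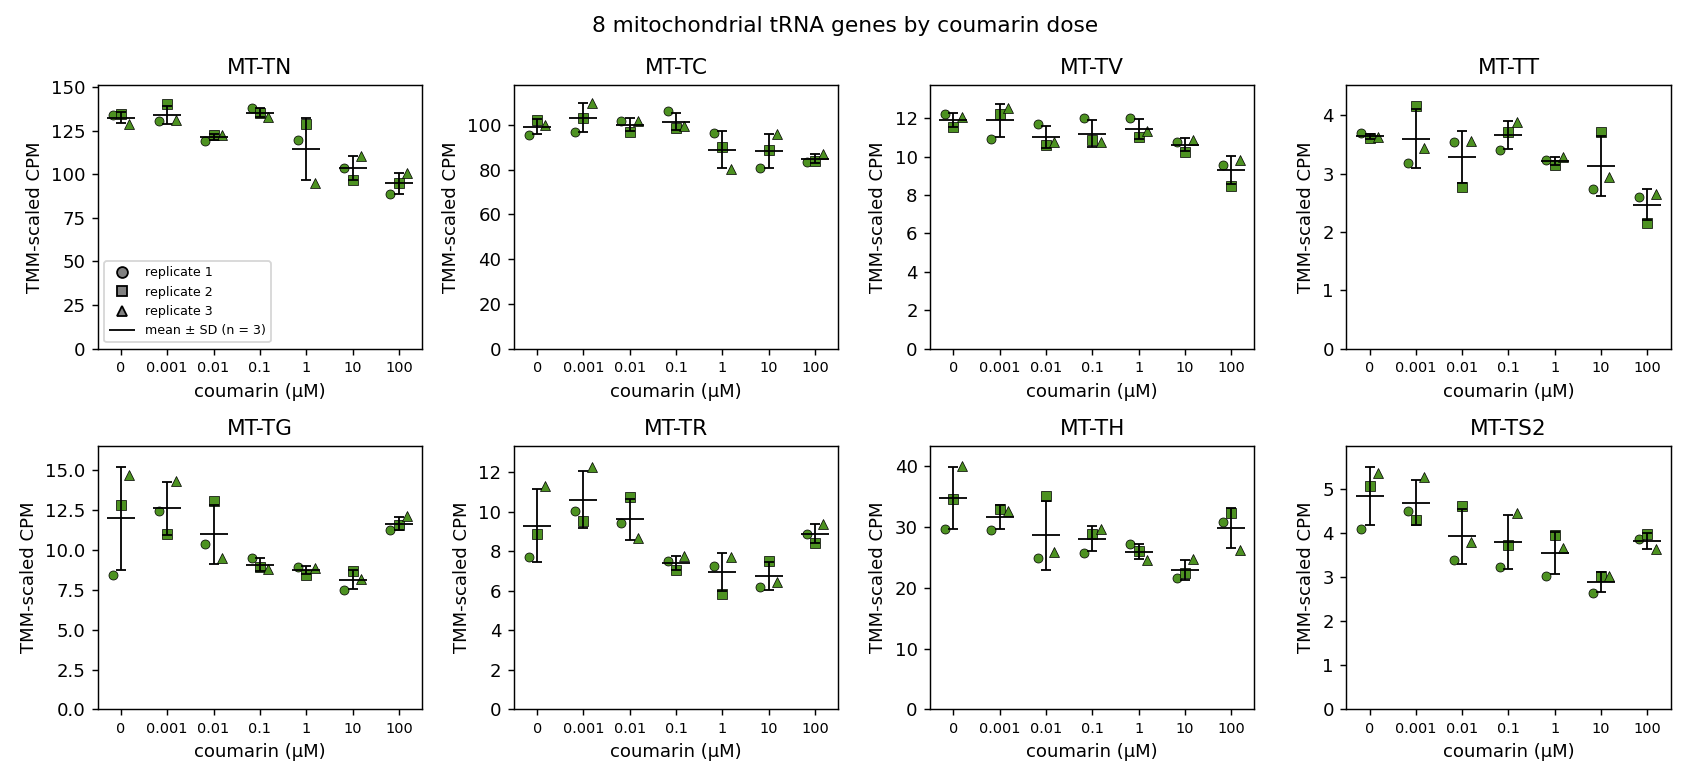
TMM-scaled CPM of 8 tRNA genes in each of the 21 libraries against coumarin dose, with the group mean ± SD (n = 3). MT-TN, MT-TC, MT-TV and MT-TT have their lowest means at 100 µM, whereas MT-TH, MT-TS2, MT-TG and MT-TR are lower at 10 µM than at 100 µM.

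Over the 6 treated doses, 5 tRNA genes declined with rising dose: MT-TN, MT-TC, MT-TV, MT-TE and MT-TT. The slope was fitted on log10 dose with a separate mean for the control, and 2.78% of all genes passed, 1.51% with a falling slope. Per 10-fold rise in dose the log2 slope was -0.10 for MT-TN (SE 0.01, adjusted p = 7.97e-05), -0.06 for MT-TC (SE 0.01, adjusted p = 0.000447) and -0.05 for MT-TV (SE 0.01, adjusted p = 0.0270). It was -0.10 for MT-TE (SE 0.03, adjusted p = 0.0306) and -0.09 for MT-TT (SE 0.03, adjusted p = 0.0476). MT-TN and MT-TC kept their slopes under every alternative and without any single library. The slope of MT-TT was lost under 4 alternatives and in 16 of 21 runs that left out a library, and scaling within the mitochondrial counts ended those of MT-TV and MT-TE, as did the gene length offset for MT-TV and limma for MT-TE. Leaving out replicate 2 or 3 at 0.001 µM, or replicate 1 or 2 at 100 µM, also ended both, as did 100 µM replicate 3 for MT-TV and 0.01 µM replicate 1 for MT-TE.

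MT-TE encodes the tRNA for glutamate on the minus strand, between MT-ND6 and MT-CYB. Without coumarin the level was 4.76, 4.62 and 5.51 CPM, against 4.89, 5.30 and 6.37 at 0.001 µM, 5.84, 5.05 and 3.99 at 0.01 µM and 4.83, 4.08 and 3.65 at 0.1 µM. For 1 µM it was 3.00, 4.03 and 4.54 CPM, for 10 µM 3.49, 4.22 and 4.51 and for 100 µM 3.46, 3.95 and 4.48. All 9 libraries at 1, 10 and 100 µM lay below the 3 at 0.001 µM, a split read from the same values as the slope and no further support for it. At 100 µM alone the log2 difference from control was -0.32 (SE 0.15, adjusted p = 0.206).

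A test over the 7 groups together passed for 8 of the 37 genes, beside 4.35% of all genes. These were MT-TN (adjusted p = 9.64e-06), MT-RNR1 (0.000410), MT-TR (0.00166), MT-TC (0.00403), MT-TG (0.00731), MT-TH (0.00780), MT-TS2 (0.0147) and MT-TV (0.0304). Of these MT-TR and MT-TG passed in no single comparison with the control. MT-TN and MT-TR held under every alternative and without any single library. MT-TC was lost with limma and with scaling within the mitochondrial counts, MT-TG, MT-TH and MT-RNR1 with limma, and MT-TS2 without 10 µM replicate 1. MT-TV was lost with scaling within the mitochondrial counts and without control replicate 1, 0.001 µM replicate 2 or any library at 100 µM.

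No protein-coding gene passed in any of these tests with edgeR. At an unadjusted p under 0.05 there were 2 of 13 at 10 µM (MT-ND5 and MT-ATP6) and 1 of 13 at 100 µM (MT-ATP6), beside 12.2% and 23.2% of all genes; DESeq2 and limma called 0 of 13 at both doses. Over the 7 groups 5 of 13 had an unadjusted p under 0.05, beside 17.7% of all genes, and DESeq2 called MT-ND5. Without a filter on low counts edgeR called 2 of 13 at 10 µM, 2 at 100 µM and all 13 over the 7 groups. The share of all genes called without the filter is not given here, so these counts are not read as particular to these genes.

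MT-CO1 (MT:5904-7445), the catalytic subunit of complex IV, had the highest count of the protein-coding genes. It measured 11070, 10560 and 11700 CPM in the 3 control libraries, 11230, 12410 and 12050 at 0.001 µM, 12640, 11690 and 11600 at 0.01 µM and 12650, 11450 and 11280 at 0.1 µM. The higher doses gave 11160, 10360 and 11250 CPM at 1 µM, 11170, 12250 and 12090 at 10 µM and 11290, 11780 and 11720 at 100 µM. Each dose overlapped the control, and the log2 difference from it was 0.09 (SE 0.05, adjusted p = 0.462) at 10 µM and 0.06 (SE 0.05, adjusted p = 0.487) at 100 µM. MT-ND6 (MT:14149-14673) is the minus-strand mRNA. The control libraries held 1165, 1062 and 1385 CPM of MT-ND6, followed by 1275, 1501 and 1373 at 0.001 µM, 1405, 1243 and 1176 at 0.01 µM and 1284, 1127 and 1108 at 0.1 µM. At 1 µM MT-ND6 stood at 1220, 1008 and 1067 CPM, at 10 µM at 1008, 1243 and 1137 and at 100 µM at 1126, 1326 and 1185. Its libraries overlapped the controls at every dose, with log2 differences of -0.09 (SE 0.09) at 10 µM and 0.01 (SE 0.09) at 100 µM. MT-ATP6 had the largest mRNA difference at both doses among those above 0, 0.19 (SE 0.08, adjusted p = 0.343) at 10 µM and 0.21 (SE 0.08, adjusted p = 0.111) at 100 µM. At 100 µM it passed with no filter, when only the 6 libraries compared were fitted, and without control replicate 3. The median over protein-coding genes at 100 µM was -0.01 under the gene length offset in place of 0.03. All 13 slopes over dose were below 0, at most 0.06 in size, and none passed.

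MT-ATP8 varied most among the protein-coding genes, with a within-group coefficient of variation of 19.9%. Without coumarin the level was 35.7, 35.2 and 53.4 CPM, against 49.5, 59.05 and 57.6 at 0.001 µM, 56.03, 62.5 and 39.6 at 0.01 µM and 46.9, 31.8 and 30.98 at 0.1 µM. For 1 µM it was 32.8, 31.7 and 45.5 CPM, for 10 µM 38.05, 49.3 and 44.3 and for 100 µM 44.1, 59.2 and 38.8. Each dose overlapped the control, and the log2 difference at 100 µM was 0.19 (SE 0.17, adjusted p = 0.553).

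At the 4 lower doses no mitochondrial gene passed, with edgeR, DESeq2 or limma. Over all genes the share that passed was 0% at 0.001 µM, 0.00617% at 0.01 µM, 0.00617% at 0.1 µM and 0% at 1 µM. At an unadjusted p under 0.05 there were 5, 7, 5 and 8 of the 37 genes, beside 8.42%, 8.81%, 6.27% and 3.91% of all genes. At 1 µM the tRNA median was -0.19, and MT-TG (-0.45), MT-TS2 (-0.44), MT-TR (-0.42), MT-TH (-0.42) and MT-TN (-0.21) each had an adjusted p of 1. There 4 tRNA genes had all 3 libraries below the controls, against 3.93% of all genes. Without a filter on low counts edgeR called 4, 4, 2 and 4 members at these doses, and the share of all genes called without it is not given here.

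Reads of mitochondrial transcripts can also be placed on nuclear copies of mitochondrial DNA, or the reverse. The table listed 407 such pseudogene copies, of which 6 were tested and 4 averaged at least 1 CPM. MTND2P28 averaged 282 ± 22.7 CPM, 10.4% of MT-ND2, MTATP6P1 239 ± 32.3 CPM, 5.23% of MT-ATP6, MTCO1P12 90.7 ± 6.20 CPM, 0.783% of MT-CO1, and MTND4P12 1.56 ± 0.481 CPM. MTATP6P1, on chromosome 1 from 633696 to 634376 in GRCh38, was lower at 100 µM by a log2 difference of -0.34 (adjusted p = 0.0119), while MT-ATP6 itself did not pass; the call was lost without control replicate 2 or 100 µM replicate 1, and the other 3 copies did not pass. The levels of MT-ATP6, MT-ND2 and other genes with such copies are therefore uncertain. How reads that fit both places were counted is not given, so these shares do not set the size of that uncertainty.

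Nuclear genes that act on mitochondrial DNA, RNA and protein were examined in 6 lists with 120 tested genes. At 10 µM edgeR called 0 of them, beside 0.327% of all genes, and 11 had an unadjusted p under 0.05, beside 12.2%; DESeq2 called 2 and limma 0. At 100 µM edgeR called 7 of the 120, beside 8.47% of all genes, DESeq2 11 and limma 8. Both counts are near the background, so they say nothing particular to these lists. At 100 µM RNASEH1, which removes RNA from RNA-DNA hybrids, was the only one of 21 transcription and replication genes to pass (log2 difference 0.14, SE 0.04, adjusted p = 0.0447), a call that 5 alternatives and 12 of 21 left-out libraries ended. TWNK (0.11), POLG (0.10) and TOP1MT (0.15) did not pass. In the list of RNA processing and decay, 1 of 25 rose and 1 fell. REXO2, an exonuclease that degrades short RNAs, rose from 77.2 ± 2.59 to 86.0 ± 1.48 CPM (log2 0.15, adjusted p = 0.0199). PTCD3, a protein of the mitochondrial small ribosomal subunit, fell from 108.1 ± 3.97 to 94.6 ± 1.19 CPM (log2 -0.19, adjusted p = 0.0127). PNPT1 (-0.12), of the mitochondrial RNA degradosome, and LRPPRC (-0.11), which stabilises mitochondrial mRNAs, did not pass.

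Of 20 genes that modify mitochondrial tRNA or rRNA, 1 rose and 1 fell at 100 µM. MRM1, a methyltransferase of the large rRNA, rose from 28.4 ± 2.36 to 33.7 ± 0.909 CPM (log2 0.24, adjusted p = 0.00698). METTL8, which methylates cytosines of mitochondrial tRNAs, fell from 45.4 ± 2.97 to 39.0 ± 0.891 CPM (log2 -0.22, adjusted p = 0.00453). PUS1 (0.15) and TRMT2B (0.16) did not pass. Among 19 genes of import and protein quality control, the chaperonin partner HSPE1 rose (0.15, adjusted p = 0.0268) and the import receptor TOMM20 fell (-0.11, adjusted p = 0.0355), while LONP1 (0.15) and DNAJA3 (0.11) did not pass. None of 9 biogenesis regulators and none of 26 respiratory chain assembly factors was called at 100 µM by edgeR, DESeq2 or limma, and 0 and 3 of them had an unadjusted p under 0.05 with edgeR, beside 8.47% of all genes called and 23.2% at an unadjusted p under 0.05. The coactivators PPRC1 (0.07), PPARGC1A (-0.21) and PPARGC1B (-0.08) and the transcription factor GABPA (0.09) had the smallest p of the regulators. The copper-handling factors SCO1 (-0.10) and COX11 (-0.10) and the complex III factors UQCC2 (0.12) and BCS1L (0.09) had the smallest p of the assembly factors. Scaling to the mitochondrial counts ended all 7 of these nuclear calls, and leaving out control replicate 2 did so too. Leaving out 100 µM replicate 1 ended those of RNASEH1, REXO2, PTCD3, HSPE1 and TOMM20. The medians of the 6 lists lay between -0.02 and 0.04, beside 0.00 for all genes.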

How the data were processed

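RNA-seq was analysed from 21 libraries, 3 for each of 7 doses, grouped by their titles. Poly(dT) beads and a SmartScribe kit served for selection and cDNA synthesis, per the labels' protocols. As deposited, the count table gives whole numbers for each gene and library, without normalization. The deposited FPKM table gives the authors' values, which equalled the counts divided by gene length and a constant per library within a relative deviation of 6.22e-08; that constant was 0.948 to 1.00 times the count total. The tools HISAT2 and DESeq2 and the build GRCh38 appear, with no role stated, per the submitters' processing notes. The read counter, its strand setting and the gene annotation were not given in the sources used here.

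Counts were fitted with edgeR 4.0.16 in R 4.3.3, after filterByExpr and TMM scaling. The fit was 1 quasi-likelihood model of all 21 libraries with 7 group means (14 residual degrees of freedom). The common biological coefficient of variation, the root of the dispersion shared over all genes, was 0.0436. Benjamini-Hochberg adjustment ran over 16196 genes, and an adjusted p under 0.05 is a call. CPM use TMM-scaled library sizes, and each SE is the log2 difference divided by the root of its F value. The slope had an own mean for the control; as a contrast of group means, added later, it called 7 of the 37 genes (4.45% of all genes), with MT-TR and MT-TS2 besides the 5. Exact permutation tests of the share of counts, in total and for each class, were planned. No p is given for them because the shares sum over chosen genes.

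Total counts were 27984517 to 43704155 per library. In each of 21 replicate pairs the counts differed beyond sampling noise (a chi-square of 2.68 to 12.2 per degree of freedom). Counts were simulated for 100 µM against control over 16196 genes. Of 50 genes each, 50.0%, 62.0%, 74.0% and 96.0% were recovered at log2 changes of 0.25, 0.5, 1 and 2, with 8 false calls. The changed genes were drawn at random from all genes tested and were fewer than those called at 100 µM. These rates therefore do not give the recovery among the mitochondrial genes. The other tests were not simulated. Alternatives were DESeq2 1.42.0, limma 3.58.1 on log2(FPKM + 1), other filters and scalings, a gene length offset, a replicate block and leaving out each library. The members and lists were chosen with earlier results of these data known. Library values are given for the genes called in any test, MT-CO1 and MT-RNR2 as the highest counts of their class, MT-ND6 and MT-TS2, with MT-ATP8 added after its values were seen, and up to 4 genes of each list by p at 100 µM. Figures were drawn with matplotlib 3.10.9.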

Additional observations from a re-analysis of the deposited data

How the results depend on the processing

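No called difference changed its direction under the alternatives run. Uncalled differences near 0 crossed it, with ranges of -0.25 to 0.15 for MT-TG, -0.19 to 0.11 for MT-TR, -0.07 to 0.12 for MT-ND6 and -0.08 to 0.03 for MT-ND5 at 100 µM, and of -0.04 to 0.02 for MT-RNR2 and -0.17 to 0.02 for MT-ND6 at 10 µM. With limma on the FPKM the number of mitochondrial genes called was 1 at 10 µM, 0 for 100 against 10 µM and 5 over the 7 groups. Without a filter on low counts it was 4 at 0.001 µM, 4 at 0.01 µM, 2 at 0.1 µM, 4 at 1 µM, 8 at 10 µM, 9 at 100 µM, 5 for 100 against 10 µM and 24 over the 7 groups. Scaling within the mitochondrial counts gave 1 for 100 against 10 µM and 2 for the slope, and the gene length offset gave 3 for the slope; the cause was not tested in any of these. DESeq2 called 4 at 10 µM, 6 at 100 µM, 3 between them, 10 over the 7 groups and 5 for the slope. The share of all genes called is given only for the main fit. The counts under these settings, with a library left out or with a replicate block are therefore not read as particular to mitochondrial genes.

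Leaving out 1 library at a time gave 0 calls at each of the 4 lower doses, 1 to 4 at 10 µM, 4 to 6 at 100 µM, 0 to 4 for 100 against 10 µM, 7 to 9 over the 7 groups and 2 to 6 for the slope. The count was 1 at 10 µM without control replicate 2. The slope count was 2 without 0.001 µM replicate 2, 100 µM replicate 1 or 100 µM replicate 2, and 3 without 0.001 µM replicate 3 or 0.01 µM replicate 1. The difference in the mitochondrial share was 0.0464 to 0.156 percentage points under the alternatives and 0.0213 to 0.235 with a library left out.

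Same-numbered replicates did not deviate together: none of 63 pairs had a correlation over 0.1 (-0.0860 to 0.0650). With the replicate number as a block 3 genes were called at 10 µM, 5 at 100 µM, 3 between them, 8 over the 7 groups and 4 for the slope, which lost MT-TT. Depth limits the 6 tRNA genes under 1 CPM most: their standard errors at 100 µM reach 0.43 on the log2 scale.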
